A study of Solanum lycopersicum with 16 samples.

Results

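SlIDD16 (Solyc08g063040, LOC101256995 in RefSeq, chromosome 8 of tomato) was 1 of the 22 target genes whose transcripts were quantified by quantitative real-time PCR (qRT-PCR) in tomato seedlings under stress. The gene, listed as IDD16 in the plate layout, was chosen by name and followed through all 16 groups. The measured quantity was the threshold cycle (Ct), the number of PCR cycles after which the product becomes visible, so a lower Ct stands for more transcript. SlIDD16 was read from the second of 2 plates per tissue and treatment, at position 6 of 12, and all of its 64 wells gave a value, from Ct 19.0 to 24.7.

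Seedlings were left as controls, given salt water (200 mM NaCl), given acid water of pH 4.2 (low pH), or watered in excess (flood). Roots and shoots were taken at 2 h and at 24 h. The labels give the second plate, which holds all SlIDD16 wells, as 24 h only. Its upper 4 well rows were read here as 2 h and its lower 4 as 24 h, from a match to tables of the study. This reading gave 16 groups of tissue, treatment and time with 4 SlIDD16 wells each. Every SlIDD16 value given for a time, and every comparison between the times, rests on it, and it was not tested independently. Titles and source names gave the tissue and the treatment, because other label fields name different ones for some of the same samples. Drought was not among the treatments. The wells cannot be tied to single plants, so every p-value measures the spread between wells and understates the uncertainty if several wells hold RNA of one plant. In whole organs, fewer cells that make a transcript and less transcript per cell cannot be told apart.

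INDETERMINATE DOMAIN (IDD) proteins are plant zinc finger transcription factors that bind DNA and, in Arabidopsis, act with GRAS proteins such as SHORT-ROOT, SCARECROW and the DELLA proteins in root patterning, gravity responses and sugar and hormone signalling. SlIDD16 is a tomato member of this family, and mutants of it have been described as altered in their tolerance to salt and drought. The tomato genes SlIDD2 and SlIDD11 were taken as its relatives, from their place beside it in a picture of the family tree. Ubiquitin, a protein tag made in every cell, served as the reference transcript.

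The level of SlIDD16 was expressed as minus delta Ct, the mean ubiquitin Ct of the same plate and group minus the SlIDD16 Ct, a log2 scale on which ubiquitin is 0. The highest mean level, -3.25 ± 0.33 (SD, n = 4 wells), was in flooded shoots at 24 h. Flooded shoots at 2 h followed at -3.51 ± 0.14 and salt-treated shoots at 24 h at -3.69 ± 0.29. The lowest was in low pH shoots at 2 h, at -5.81 ± 1.66. If each cycle doubles the product, these extremes correspond to 10.5% and 1.78% of the ubiquitin transcript, a range of 5.91-fold over the 16 groups.

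Shoots held the upper end of the order and also its lowest place, and all root groups lay between. Low pH roots at 2 h (-3.90 ± 0.64), control shoots at 2 h (-3.99 ± 0.31) and salt-treated shoots at 2 h (-4.11 ± 0.57) came next after the leading groups. The other root groups lay in a band from -4.74 ± 0.18 in salt-treated roots at 24 h to -5.34 ± 0.36 in salt-treated roots at 2 h. Control roots lay inside that band, at -5.21 ± 0.87 at 2 h and -5.25 ± 0.55 at 24 h. Control shoots at 24 h (-4.91 ± 0.16) and low pH shoots at 24 h (-5.32 ± 0.21) lay among the roots. Neighbours in this order could not be separated: in 0 of 15 neighbouring pairs was the gap larger than the sum of their SDs.

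**Figure D1:**
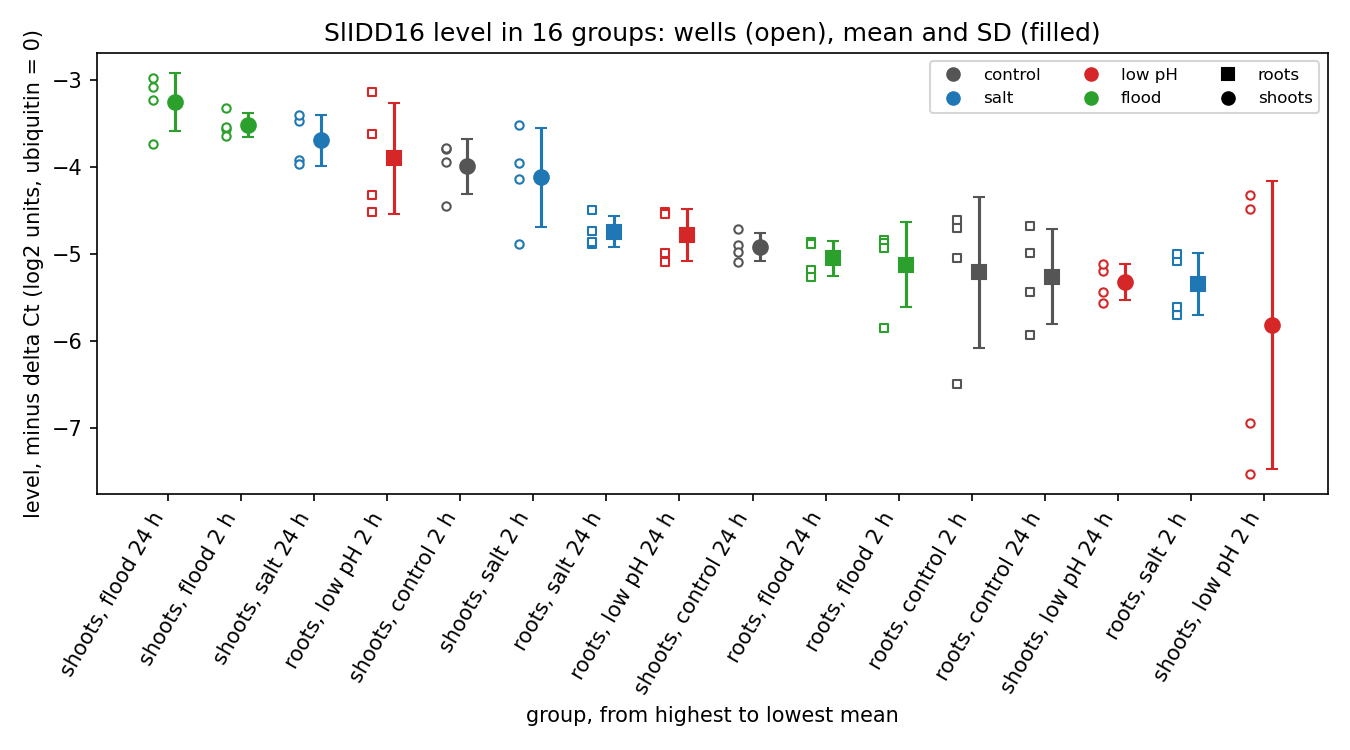
Level of SlIDD16 (minus delta Ct, log2 units, ubiquitin of the same plate at 0) in the 16 groups, ordered from the highest to the lowest mean. Open symbols are single wells, filled symbols with bars are the mean and SD of 4 wells; flooded shoots lead at -3.25 and low pH shoots at 2 h close the order at -5.81 with the widest spread.

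Each stress was set against control wells of its own tissue and time point. The log2 fold change is the change in minus delta Ct, tested with limma over all targets of the comparison and adjusted by Benjamini-Hochberg, with an adjusted p of 0.05 as the threshold. SlIDD16 passed in 3 of the 12 comparisons, all of them in shoots: it was higher in salt and in flood at 24 h and lower in low pH at 2 h. Over all targets and the same 12 comparisons 60.4% of the tests passed. SlIDD16 passed in fewer comparisons than any of the other 21 targets, and its median absolute log2 fold change, 0.47, was the smallest of the 22, against a median over targets of 1.21. This place in the order held only for some references: against ubiquitin of both plates 2 targets passed less often than SlIDD16, and against the mean of the other targets of the plate it passed in 10 of 12 comparisons.

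In salt-treated shoots at 24 h the SlIDD16 wells read Ct 19.84, 19.77, 20.28 and 20.34. The control shoots at 24 h read 20.81, 21.00, 21.20 and 21.08. Every salt well was earlier than every control well, and ubiquitin of the plate moved little, from a mean Ct of 16.1 to 16.4. The log2 fold change was 1.23 (SE 0.26, 95% interval 0.67 to 1.78, limma adjusted p = 0.000295), a 2.34-fold rise. The background was high: 90.9% of the 22 targets passed in this comparison, 18 of them upward, with a median of 1.52 over all targets. SlIDD16 stood below that median, with 13 targets above it and 8 below. Upward calls made up 81.8% of the targets, so a rise there was the common outcome. Relative to the mean of the other targets of its plate its change was -0.28 (adjusted p = 0.23), and with all rows of the second plate read as 24 h, as labelled, it was 0.55 (adjusted p = 0.205).

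Salt left the earlier shoots and the roots without a call. At 2 h the salt-treated shoots read 20.38, 19.01, 19.63 and 19.45 against 20.34, 19.83, 19.68 and 19.68 in control shoots. The wells overlapped, and the change was -0.13 (SE 0.41, adjusted p = 0.841), in a comparison where 31.8% of the targets passed. In roots the change was -0.14 (SE 0.49, adjusted p = 0.788) at 2 h and 0.52 (SE 0.31, 95% interval -0.13 to 1.17, adjusted p = 0.163) at 24 h, where 36.4% and 59.1% of the targets passed. Ubiquitin itself was earlier in salt-treated roots, by 1.54 cycles at 2 h and 0.79 cycles at 24 h on this plate, and the SlIDD16 Ct alone was earlier at both times. Log2 fold changes without any reference were 1.40 (adjusted p = 0.0125) and 1.31 (adjusted p = 0.00114). Against ubiquitin of the first plate they were 0.0114 (adjusted p = 0.982) and -0.86 (adjusted p = 0.0276). Against the mean of the other targets of the plate they were -1.55 (adjusted p = 0.00836) and -1.09 (adjusted p = 0.00416). Over these references the direction of the salt response of SlIDD16 in roots differed at both times.

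Against ubiquitin of the same plate, flooding gave the largest measured rise of SlIDD16, in shoots at 24 h. Salt and flood did not differ past the threshold there (salt over flood -0.44, limma adjusted p = 0.155). Against ubiquitin of the first plate the rise was larger in salt, 2.93 against 2.41 in flood. The flooded shoots at 24 h read 19.08, 19.18, 19.33 and 19.84, all earlier than the control shoots at 24 h given above, while ubiquitin had a mean Ct of 16.1 in both groups. The log2 fold change was 1.66 (SE 0.25, 95% interval 1.13 to 2.19, limma adjusted p = 7.36e-06), a 3.17-fold rise. Here 100% of the 22 targets passed, 95.5% of them upward, with a median of 2.41. SlIDD16 lay below it, with 16 targets above and 5 below, and relative to the mean of the other targets of its plate the change was -0.20 (adjusted p = 0.412).

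At 2 h the flooded shoots read 19.56, 19.54, 19.65 and 19.32, a narrow group. Their levels, -3.64 to -3.32, lay above all control levels at 2 h, -4.44 to -3.78. The change was 0.47 (SE 0.36, adjusted p = 0.243) and did not pass in limma, where 63.6% of the targets did. An exact permutation test on the same wells gave an unadjusted p = 0.0286, the smallest that 4 wells against 4 allow. For SlIDD16 this test, here and below, held the ubiquitin mean of each group fixed and left out its error. In flooded roots the change was 0.09 (SE 0.51, adjusted p = 0.985) at 2 h and 0.21 (SE 0.31, adjusted p = 0.623) at 24 h, with 40.9% of the targets past the threshold at each time, and the levels of flooded and control roots overlapped at both times.

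Low pH was the stress under which SlIDD16 fell in shoots. At 2 h the low pH shoots read 24.72, 21.67, 24.14 and 21.52, against 19.68 to 20.34 in the controls. All 4 wells were later than every control well, but they formed 2 pairs, with rows 1 and 3 late and rows 2 and 4 earlier. Ubiquitin was later too, with a mean Ct of 17.2 against 15.9 in the control (exact permutation p = 0.0286, 0.0571 adjusted over the 12 comparisons). After this correction the wells overlapped, from -7.52 to -4.32 in low pH and from -4.44 to -3.78 in the control.

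The log2 fold change in low pH shoots at 2 h was -1.83 (SE 0.71, 95% interval -3.30 to -0.35, limma adjusted p = 0.0445). In this comparison 40% of the 20 targets passed. SlIDD16 was the only downward call, 5% of the targets, and had the lowest value of all 20, whose median was 0.61. CRF5 and STF4 gave no values in low pH shoots. The call rested on the 2 late wells: without them, a choice made after seeing the data, the change was -0.41 (adjusted p = 0.663). Without row 1 it was -1.56 (adjusted p = 0.164) and without row 3 it was -1.32 (adjusted p = 0.426), and the exact permutation test over all wells gave p = 0.0571. With the root and shoot controls of the second plate exchanged, an error that could not be checked, it was -0.61 and not called, and with the well row as a block the adjusted p was 0.12.

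At 24 h the low pH shoots read 22.09, 22.004, 22.45 and 22.33, each later than every control shoot well. Ubiquitin was later by 0.79 cycles, which left a change of -0.41 (SE 0.24, 95% interval -0.91 to 0.10, adjusted p = 0.11). It was not called in limma, whereas 95% of the 20 targets tested were, 17 of them upward. The exact permutation test gave p = 0.0286, since the levels of low pH and control shoots did not overlap. The same value of -0.41 was called in limma with the well row as a block (adjusted p = 0.0397) and with ubiquitin taken row by row (adjusted p = 0.0374). Larger falls were called without a reference (-1.20) and against the mean of the other targets of the plate (-1.42) or of all targets (-2.39), whereas against ubiquitin of the first plate the value was 0.0351 (adjusted p = 0.906). Only 2 targets lay below SlIDD16 in this comparison and 17 lay above, around a median over all targets of 2.19.

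In low pH roots at 2 h the measured change was the largest of the 6 root comparisons against ubiquitin of the same plate, without passing the threshold. The wells read 20.62, 21.81, 22.004 and 21.10, against 21.12, 20.69, 20.78 and 22.57 in control roots. The Ct values overlapped and their means were close, 21.4 and 21.3. Ubiquitin was later by 1.41 cycles in low pH roots, with 1 well at 18.94 and the others from 16.77 to 17.23. Relative to ubiquitin the levels did not overlap, from -4.52 to -3.13 in low pH and from -6.48 to -4.60 in control roots. The exact permutation test on these levels gave an unadjusted p = 0.0286. Both rest on the shift of the ubiquitin mean, whose error they leave out. The change was 1.31 (SE 0.73, 95% interval -0.24 to 2.85, limma adjusted p = 0.125), in a comparison in which 63.6% of the targets passed. Without the late ubiquitin well, also left out after seeing the data, it was 0.83 (adjusted p = 0.206). With ubiquitin of the first plate as the reference, which was earlier by 1.95 cycles in these roots, it was -2.05 (adjusted p = 0.00708). With the controls of roots and shoots exchanged it was 0.09 (adjusted p = 0.879), and the largest root change was then that of salt at 2 h (-1.35).

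At 24 h the change in low pH roots was 0.48 (SE 0.34, adjusted p = 0.254), where 63.6% of the targets passed. Ubiquitin of the second plate had the same mean Ct of 16.1 in low pH and control roots, whereas on the first plate it read 13.7 in low pH and 17.7 in control roots. With the first plate as the reference the change of SlIDD16 was -3.54 (adjusted p = 9.22e-08). The plot of the threshold cycles shows the 64 SlIDD16 wells with the ubiquitin wells of their own plate.

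**Figure D2:**
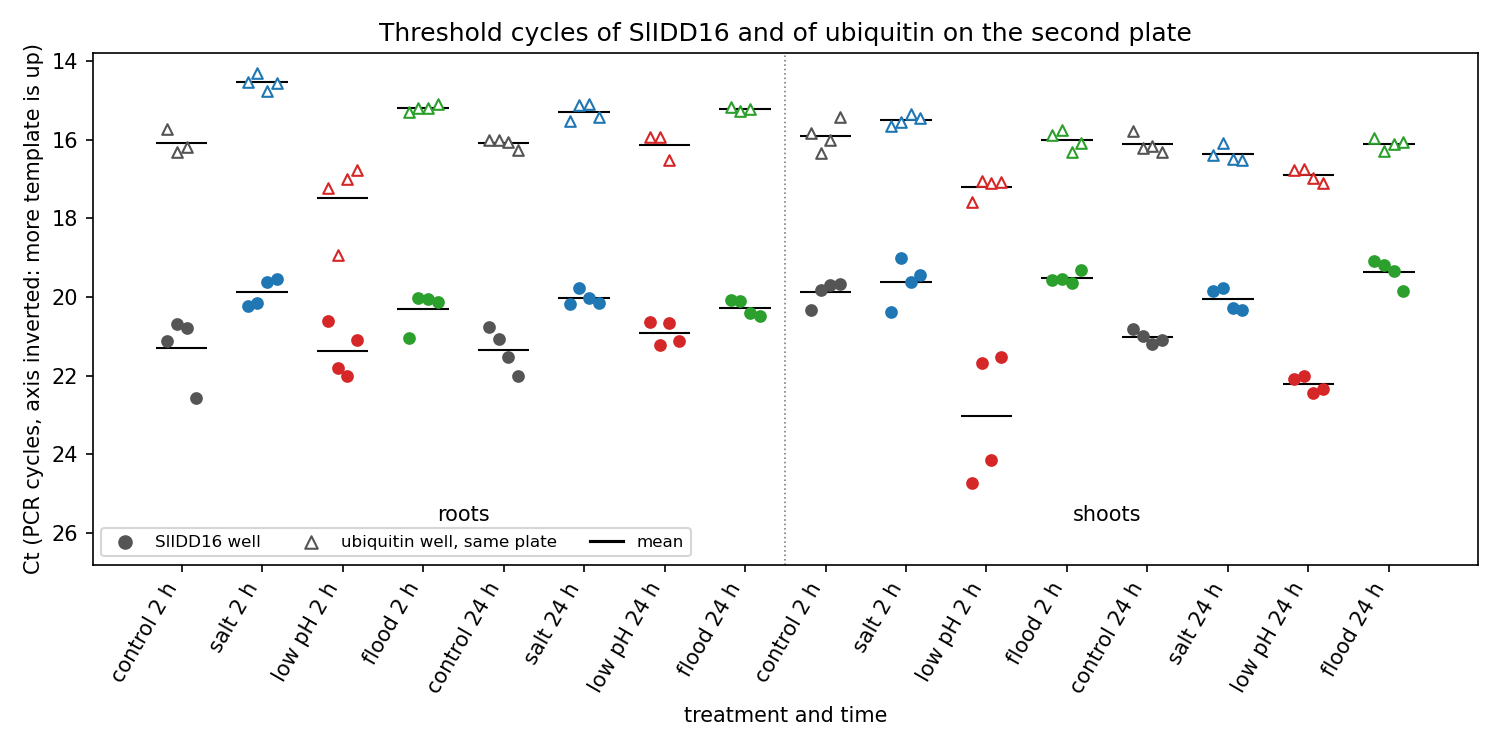
Ct of SlIDD16 (filled circles) and of ubiquitin on the same plate (open triangles) in each well of the 16 groups, with roots on the left and shoots on the right; black lines are means, and the axis is inverted so that more transcript is up. Low pH shoots at 2 h split into wells at 21.52 and 21.67 and wells at 24.14 and 24.72, and 1 ubiquitin well of low pH roots at 2 h lies at 18.94.

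**Figure D3:**
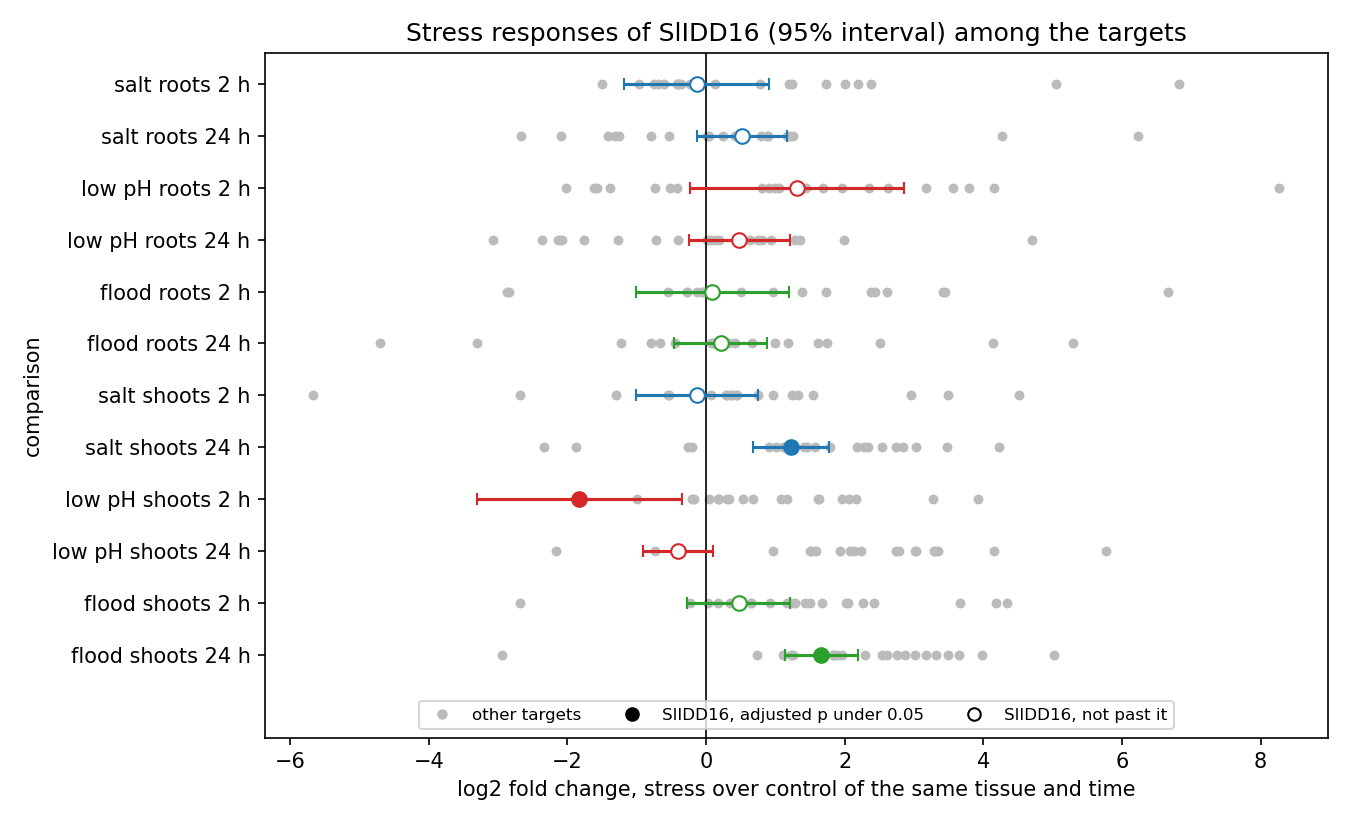
Log2 fold change of SlIDD16 in the 12 stress comparisons with its 95% interval (coloured; filled where the limma adjusted p was under 0.05), among the other targets (grey). SlIDD16 stays between -1.83 and 1.66, while single targets reach from -5.66 to 8.27.

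The responses of shoots and roots were compared directly as an interaction in the same limma model. The low pH response at 2 h was lower in shoots than in roots, with a difference of -3.14 (SE 1.08, adjusted p = 0.0193), where 40% of the 20 targets passed and 30% passed downward. Without the 2 late shoot wells the difference was -1.72 (adjusted p = 0.119). Without row 1 it was -2.58 (adjusted p = 0.105), and without row 3 it was -3.22 (adjusted p = 0.108). The call was also lost against ubiquitin of both plates (-2.44, adjusted p = 0.128) or of the first plate (-1.78, adjusted p = 0.118), and against the mean of the other targets of the plate (-1.41, adjusted p = 0.23) or of all targets (-2.04, adjusted p = 0.0622). With exchanged controls the difference was -0.70 (adjusted p = 0.551). The flood response at 24 h was higher in shoots than in roots by 1.45 (SE 0.42, adjusted p = 0.00273), where 81.8% of the 22 targets passed and 68.2% passed upward. Against the mean of the other targets of the plate this difference was 0.82 (adjusted p = 0.0714), against the mean of all targets 0.77 (adjusted p = 0.0773) and without a reference 0.59 (adjusted p = 0.149). The remaining 4 interactions of tissue did not pass, among them -0.88 for low pH at 24 h, where 75% of the targets passed, and 0.71 for salt at 24 h, where 72.7% did.

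Between the times, the shoot responses to salt and to flood were larger at 24 h than at 2 h. The difference was 1.36 for salt (SE 0.50, adjusted p = 0.0404) and 1.19 for flood (SE 0.41, adjusted p = 0.0183), and 40.9% of the targets passed in each, 36.4% upward. Both used the control shoots, whose own SlIDD16 level went from -3.99 at 2 h to -4.91 at 24 h, a change of -0.93 (SE 0.36, adjusted p = 0.0575) that did not pass. The treated shoots changed less between the times, by 0.43 in salt and by 0.26 in flood. For salt the call was lost without row 1 (1.21, adjusted p = 0.0897), row 2 (1.44, adjusted p = 0.0797) or row 3 (1.19, adjusted p = 0.205). For flood it was lost without row 2 (0.85, adjusted p = 0.198) or row 3 (1.10, adjusted p = 0.0983). Against the mean of the other targets of the plate the differences were 0.93 for salt (adjusted p = 0.125) and 0.61 for flood (adjusted p = 0.136), and against the mean of all targets 0.83 (adjusted p = 0.192) and 0.72 (adjusted p = 0.0721). Without a reference the salt difference was 0.70 (adjusted p = 0.294), while that of flood passed at 1.30 (adjusted p = 0.00146). With exchanged controls the differences were 0.48 for salt (adjusted p = 0.582) and 0.31 for flood (adjusted p = 0.74). The other 4 interactions of time did not pass. They were 1.42 (SE 0.82, adjusted p = 0.134) for low pH shoots, where 50% of the targets passed, 0.65 (adjusted p = 0.403) for salt-treated roots, where 9.09% did, -0.83 (adjusted p = 0.423) for low pH roots, where 36.4% did, and 0.12 (adjusted p = 0.844) for flooded roots, where 22.7% did.

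The stresses were also set against each other within a tissue and time, which needs no control wells. SlIDD16 was higher in flooded than in low pH shoots, by 2.30 at 2 h (SE 0.71, adjusted p = 0.0161) and by 2.07 at 24 h (SE 0.23, adjusted p = 1.45e-06), where 55% and 65% of the 20 targets passed, 45% and 40% upward. At 2 h this was the highest value among the 20 targets, and at 24 h only 1 target lay above it. The 2 h difference was not called without row 1 (1.91, adjusted p = 0.0518) or row 3 (1.83, adjusted p = 0.132), and was 0.88 without the 2 late wells (adjusted p = 0.0116). Salt-treated shoots were above low pH shoots at 24 h by 1.63 (SE 0.30, adjusted p = 1.45e-05), where 55% of the targets passed but only 20% upward. At 2 h this difference was 1.70 (SE 0.79, 95% interval -0.09 to 3.49, adjusted p = 0.184), where 25% of the targets passed. Salt and flood did not differ past the threshold: in shoots at 24 h salt over flood was -0.44 (SE 0.26, 95% interval -0.98 to 0.10, adjusted p = 0.155). None of the 6 root pairs passed. For salt over low pH at 2 h (-1.44, 95% interval -2.61 to -0.28, adjusted p = 0.0655) the levels did not overlap. Nor did they for flood over low pH at 2 h (-1.22, 95% interval -2.44 to -0.01, adjusted p = 0.0983). These levels hold the ubiquitin means fixed. At 24 h flood over low pH in roots was -0.27 (95% interval -0.86 to 0.32), where 50% of the targets passed.

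Relative to ubiquitin of the same plate, roots held less SlIDD16 than shoots in salt and in flood. In salt, roots over shoots was -1.23 at 2 h (SE 0.35, adjusted p = 0.0161) and -1.05 at 24 h (SE 0.24, adjusted p = 0.000996), where 54.5% and 59.1% of the 22 targets passed, 31.8% and 27.3% downward. In flood the difference was -1.60 (SE 0.30, adjusted p = 0.000158) at 2 h and -1.80 (SE 0.24, adjusted p = 8.82e-06) at 24 h, where 63.6% and 68.2% passed, 45.5% and 54.5% downward. The salt call at 2 h was lost without row 2 (-0.85, adjusted p = 0.0899) and without a reference (-0.27, adjusted p = 0.515). The SlIDD16 Ct of salt-treated roots and shoots at 24 h was nearly equal, with means of 20.03 and 20.06, while ubiquitin had means of 15.3 and 16.4. In controls the difference was -1.22 (SE 0.60, adjusted p = 0.0956) at 2 h, where 50% of the targets passed and the SlIDD16 wells of the tissues did not overlap, and -0.34 (SE 0.33, adjusted p = 0.342) at 24 h. Low pH roots lay above low pH shoots by 1.92 at 2 h (SE 0.85, adjusted p = 0.0766) and 0.54 at 24 h (SE 0.32, adjusted p = 0.139), without passing.

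Time alone gave 0 calls for SlIDD16 in 8 comparisons of 24 h with 2 h, where 23% of the tests over all targets passed. In limma at an unadjusted p under 0.05 there were 2, control shoots (-0.93, unadjusted p = 0.0183) and salt-treated roots (0.60, unadjusted p = 0.0343). In both the wells of the 2 times did not overlap, with an exact permutation p of 0.0286. In control roots, by contrast, the change was -0.05 (95% interval -1.17 to 1.07).

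The size of the SlIDD16 changes differed between references. Over the 12 stress comparisons its median absolute log2 fold change was 0.47 against ubiquitin of its own plate, 0.45 against ubiquitin of both plates and 0.50 with ubiquitin taken row by row, in each case the smallest of the 22 targets. It was 1.02 without a reference, 0.96 against the mean of all targets, 1.08 against ubiquitin of the first plate and 1.15 against the mean of the other targets of the plate. In shoots at 24 h the direction of the salt and flood changes was the same with ubiquitin of either plate: salt gave 2.93 and flood 2.41 against the first plate. Against the other targets of its plate both turned slightly negative, as given above. The fall in low pH shoots at 2 h kept its direction with every reference tried, from -1.83 against ubiquitin of its own plate to -4.02 against the mean of all targets. In roots none of the 6 stress comparisons kept its direction over all references tried.

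**Figure D4:**
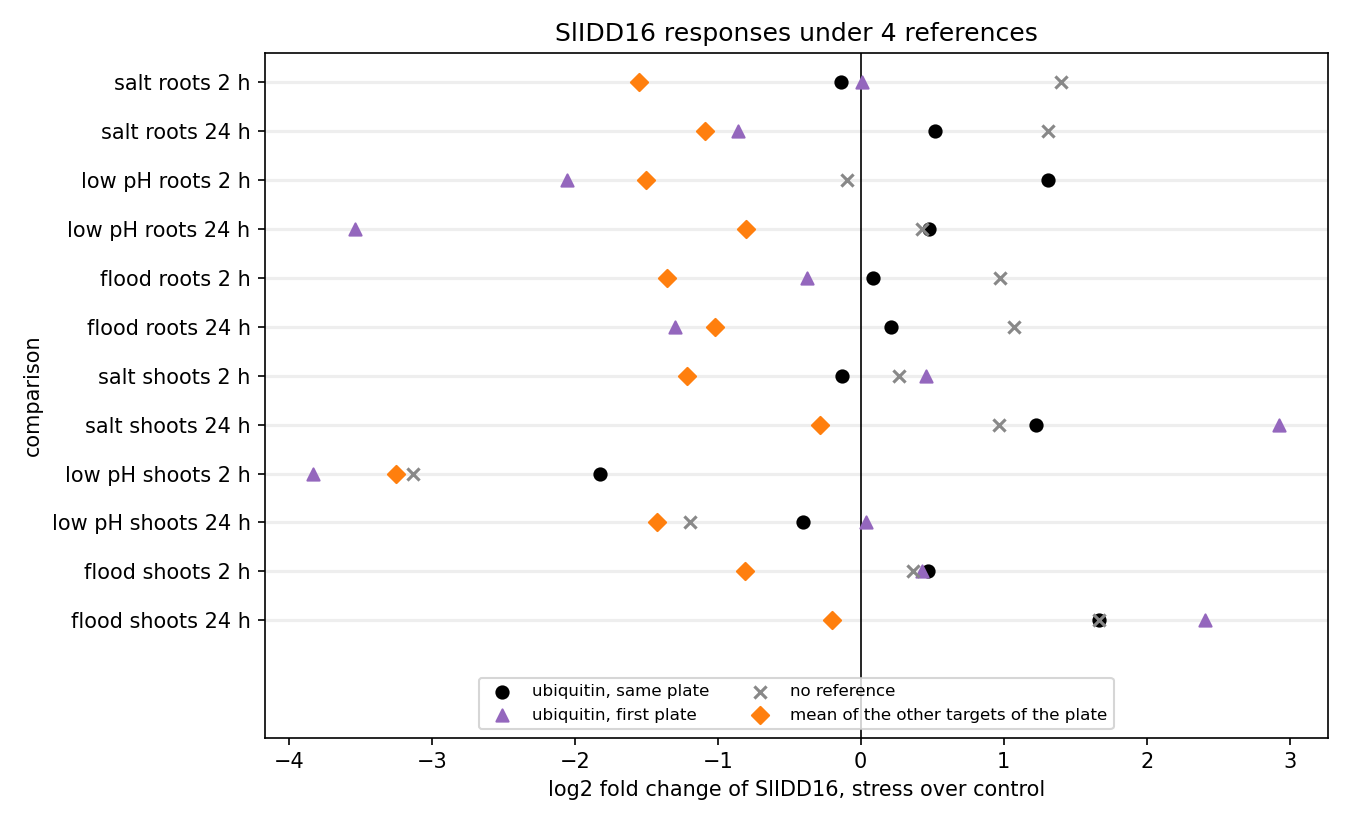
Log2 fold change of SlIDD16 in the 12 stress comparisons under 4 references: ubiquitin of its own plate, ubiquitin of the first plate, none, and the mean of the other targets of its plate. Low pH shoots at 2 h lie below 0 with all 4, flooded shoots at 24 h between -0.20 and 2.41, and low pH roots at 24 h between -3.54 and 0.48.

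SlIDD16 was next set beside its relatives and the other targets. SlIDD2 and SlIDD11 passed in 10 and 9 of the 12 stress comparisons. SlIDD2 was lower in roots in all 6 root comparisons, from -1.50 in salt at 2 h to -4.71 in flood at 24 h, in each of which the change of SlIDD16 was between -0.14 and 1.31. In salt-treated and flooded shoots at 24 h SlIDD2 passed upward, at 2.34 and 2.61, as did SlIDD16. SlIDD11 was higher in shoots in all 6 shoot comparisons, from 1.46 in salt at 24 h to 4.19 in flood at 2 h, including low pH at 2 h, where it was 3.28 and SlIDD16 was -1.83. Both relatives were read from the first plate, with its own ubiquitin, so these values carry the difference between the references as well. Of the 18 other IDD family targets, 15 passed upward in salt-treated shoots and 17 in flooded shoots at 24 h. Over all 22 targets it was 18 and 21. The family makes up 19 of these 22, so its share could hardly differ from theirs. In low pH shoots at 2 h, 7 of the 18 passed upward and 0 downward. Over all 20 targets tested there it was 7 upward and 1 downward, the latter SlIDD16.

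The 10 other targets of the second plate share the ubiquitin wells with SlIDD16. In salt-treated roots at 24 h 6 of them rose and 0 fell, and in low pH roots 7 rose at 2 h and 6 at 24 h, with 0 falling. Over all 22 targets, 7 passed upward and 6 downward in salt-treated roots at 24 h. In low pH roots 10 passed upward and 4 downward at 2 h, and 6 and 8 at 24 h. In each of these 3 comparisons SlIDD16 was below the median of the 10 other targets of its plate. Its change was 0.52 against a median of 1.03, 1.31 against 2.16 and 0.48 against 0.87. In flooded shoots at 24 h 9 of the 10 rose and 1 fell, near the 21 upward and 1 downward over all 22 targets.

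Likeness was measured as Pearson's r between mean levels over the groups, as a description of group means that share plates and ubiquitin wells. STOP1, a target outside the IDD family named like a zinc finger factor that in Arabidopsis is needed for tolerance to acid and aluminium, had the highest r with SlIDD16 (r = 0.63 and Spearman's rho = 0.57 over 16 groups). SlIDD17 followed (r = 0.55, rho = 0.49), and STF4, likewise no IDD gene, came next (r = 0.48, rho = 0.57 over 14 groups). All 3 lay on the plate of SlIDD16. By rho the order was different: SlIDD18, which had an r of 0.43 and lay on the same plate, had the highest rho of 0.61. Without any reference the correlations were 0.70 for STOP1 and 0.69 for SlIDD17, again the highest, but 0.15 for STF4. Likeness followed the plate here: all 10 other targets of the second plate had a higher r than any first-plate target. Among the latter the highest was 0.09, for SlIDD5. Leaving out the reference therefore does not separate a likeness of genes from a shared plate. STOP1 and SlIDD17 departed from SlIDD16 in low pH shoots at 2 h, where their changes were 0.68 and 1.61 against -1.83.

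**Figure D5:**
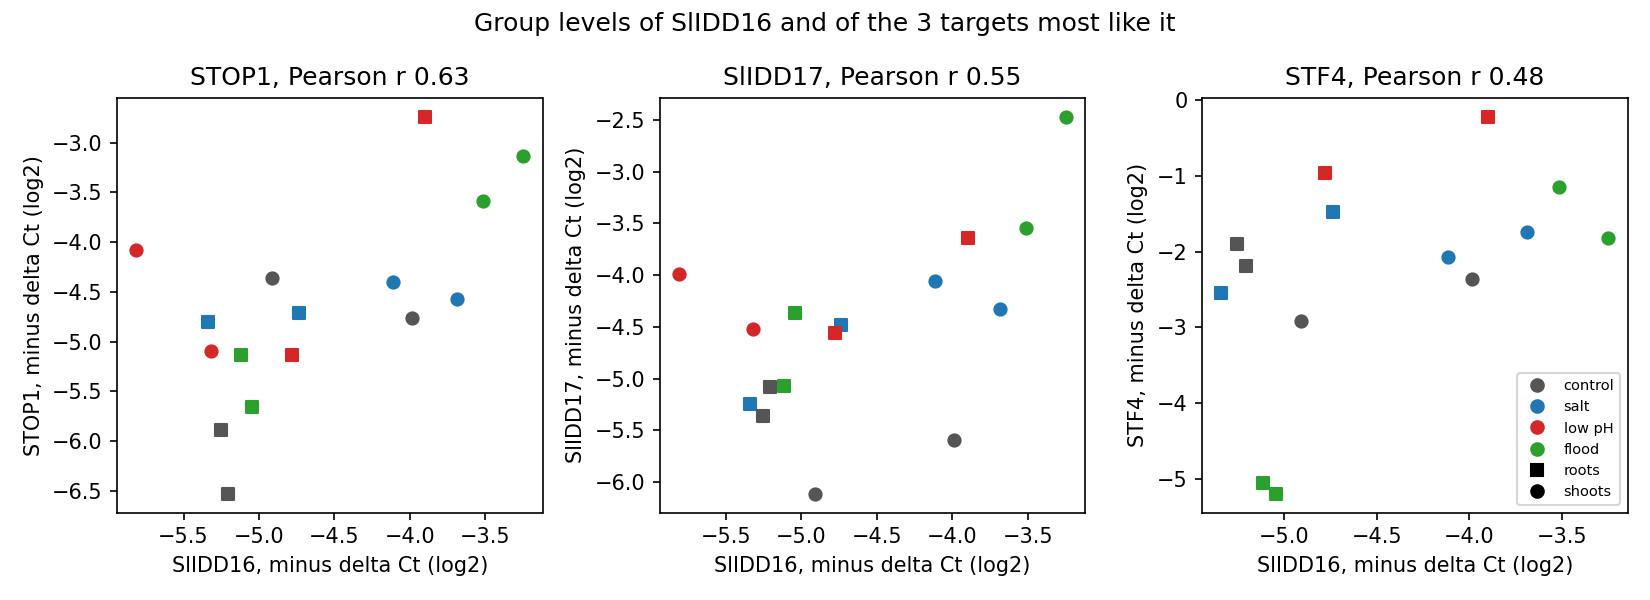
Mean level (minus delta Ct, log2 units) of SlIDD16 on the horizontal axis and of STOP1, SlIDD17 and STF4 on the vertical axes, 1 symbol per group; squares are roots, circles are shoots and colours are treatments. Flooded shoots lie at the upper right for STOP1 and SlIDD17, and low pH shoots at 2 h lie apart at the left.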

How the data were processed

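SYBR Green qRT-PCR quantified 22 targets and ubiquitin. The authors deposited raw Ct values per well, in PCR cycles and without normalization. Further sheets, which hold the authors' relative quantities and fold changes, were not used. By the labels a first plate would hold 2 h and a second 24 h. Here the upper 4 well rows were read as 2 h and the lower 4 as 24 h, with SlIDD16 at position 6 and ubiquitin at position 10 of the second plate. The layout was found, with the files known, from its match to tables of the study, and the values therefore do not test it independently. A value was given for 1425 of 1536 wells, of which 1403 entered the analysis, and 24 irregularly named wells of the first plate were left out. Irregularly named wells of the second plate were kept. Leaving these out too changed none of the 12 stress calls of SlIDD16. It moved values at 24 h, as in low pH roots from 0.48 to 0.34 and in flooded shoots from 1.66 to 1.74. SlIDD16, the compared genes and the lists were chosen with earlier results of these data known.

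Ct values of all targets and of ubiquitin entered 1 linear model per comparison in R 4.3.3 with limma 3.58.1. The ubiquitin change of the target's plate was subtracted and its error added, with Satterthwaite degrees of freedom. P-values were two-sided, with Benjamini-Hochberg adjustment across a comparison's targets. In all 52 comparisons were made. The fit was tested on simulated data. Named genes were SlIDD16, its relatives SlIDD2 and SlIDD11 (placed beside it in a tree of the study, as read from the picture), and the 3 targets with the highest Pearson r of group levels. Alternatives were other references, single rows left out, a row block, 1 fit over all groups, an exact permutation test, exchanged controls and the labelled times. Ct gives relative abundance only, and the 4 wells per group limit its precision.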

Additional observations from a re-analysis of the deposited data

Results flagged for a closer look

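Of 29 sets of 4 wells of SlIDD16 or of ubiquitin on its plate, 2 had a well far from the others, and chance alone gives about 1 in 20. In flooded roots at 2 h the SlIDD16 well of row 1 read Ct 21.04, the others from 20.03 to 20.12. In low pH shoots at 2 h the ubiquitin well of row 1 read 17.58, the others from 17.05 to 17.10. The split of the SlIDD16 wells in low pH shoots at 2 h was not picked up, since it has 2 wells on each side.

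An interaction test of SlIDD16 passed in 4 comparisons. Over all targets 62.5% of the tissue and 33.1% of the time interaction tests passed. The low pH response at 2 h differed by -3.14 between shoots and roots, but by -1.72 without the 2 late shoot wells (limma adjusted p = 0.119). The flood response at 24 h differed by 1.45 between shoots and roots, but by 0.59 without a reference (adjusted p = 0.149). In shoots the salt response differed by 1.36 and the flood response by 1.19 between 24 h and 2 h. With exchanged controls these 2 differences were 0.48 (adjusted p = 0.582) and 0.31 (adjusted p = 0.74).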

How the results depend on the processing

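Values are log2 fold changes of SlIDD16, stress over control, unless stated, and the cause of a change with a setting was not tested. Against ubiquitin of both plates, flood roots went to -0.18 at 2 h and -0.56 at 24 h, low pH roots to -0.40 and -1.70, salt roots at 24 h to -0.17 and salt shoots at 2 h to 0.15. Against ubiquitin of the first plate, flood roots went to -0.38 and -1.30, low pH roots to -2.05 and -3.54, salt roots to 0.0114 and -0.86, low pH shoots at 24 h to 0.0351 and salt shoots at 2 h to 0.46. Against the mean of the other targets of the plate, flood roots went to -1.35 and -1.02, flood shoots to -0.81 and -0.20, low pH roots to -1.50 and -0.80, salt roots to -1.55 and -1.09, salt shoots to -1.21 and -0.28, and low pH shoots at 24 h to -1.42. Against the mean of all targets, flood roots went to -1.04 and -0.98, flood shoots to -0.93 and -0.21, low pH roots to -1.81 and -1.48, salt roots at 24 h to -0.60 and low pH shoots at 24 h to -2.39. Without a reference, salt roots went to 1.40 and 1.31, flood roots at 24 h to 1.07, low pH roots at 2 h to -0.10, low pH shoots at 24 h to -1.20, salt shoots at 2 h to 0.27, and roots over shoots in salt at 24 h to 0.0273. Ubiquitin row by row gave -0.34 in flood roots at 2 h and passed low pH shoots at 24 h at -0.41 (adjusted p = 0.0374).

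The 3 stress calls became 7 against the first plate, the mean of all targets or no reference, 10 against the other targets of the plate and 5 with exchanged controls. The 2 calls of tissue interactions became 4 row by row or with exchanged controls and 1 against either mean of targets. The 2 of time interactions became 4 against the first plate, 0 against either mean of targets, and 1 without a reference or with exchanged controls. The 3 pair calls became 5 against both plates, 8 against the first plate or the mean of all targets and 9 without a reference. The 0 calls of time became 1 against both plates, the first plate, the mean of all targets, no reference or with exchanged controls. The number of targets passing went, without a reference, to 17 and 21 in flood roots at 2 h and 24 h, 15 and 20 in salt roots and 9 in low pH roots at 2 h. Against both plates it went to 5 in flood roots at 24 h, 6 and 5 in low pH roots and 7 in salt roots at 24 h.

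With control roots and shoots exchanged on the second plate, where their identity could not be checked, flood roots were -1.13 at 2 h and -0.13 at 24 h, salt roots at 2 h -1.35, salt shoots at 2 h 1.09, flood shoots at 2 h 1.69, low pH roots at 2 h 0.09 and low pH shoots at 2 h -0.61. The labelled times, with all rows of the second plate as 24 h, gave 0.55 in salt shoots (adjusted p = 0.205) and -1.12 in low pH shoots (adjusted p = 0.0326). One fit over all groups passed low pH roots at 2 h at 1.31 (adjusted p = 0.0122). The exact permutation test gave p = 0.0286 for flood shoots at 2 h (0.47), low pH roots at 2 h (1.31) and low pH shoots at 24 h (-0.41), and 0.0571 for low pH shoots at 2 h (-1.83). Without the 2 latest wells the last was -0.41.

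The labels do not number plants, so the well row served as the replicate block. Deviations of same-numbered rows correlated above 0.1 between stress and control in 8 of 12 comparisons and below it in the other 4 (r from -0.27 to 0.42). A pairing by row was therefore not met throughout, and a row effect in single comparisons was not tested. With the block, low pH shoots were -1.83 at 2 h (adjusted p = 0.12) and -0.41 at 24 h (adjusted p = 0.0397), and no other of the 12 stress calls changed. Leaving out 1 row at a time gave -0.69 to 0.34 in salt roots, -0.26 to 0.023 in salt shoots, -0.37 to 0.30 in flood roots and -2.38 to -1.32 in low pH shoots, all at 2 h, with 0 to 2 calls of time interactions and 1 to 3 of tissue interactions. With at most 4 wells per group the exact test cannot go below p = 0.0286.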
